A study of Mus musculus with 15 samples.

Results

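The dimethyl mark on lysine 4 of histone H3 (H3K4me2) was compared between goblet cells (GOB) and enterocytes (ENT), both from the intestinal villus of the mouse. The comparison used the 2 samples whose labels name villus goblet cells and villus enterocytes with an antibody to H3K4me2, out of 15 samples in the series, of which 12 have a peak list. The GOB list held 86922 peaks and the ENT list 88489 peaks, together 175411 of the 778471 peaks in the 12 lists. All mice were of strain C57BL/6. GOB came from villi of Rbpj-/- mice and ENT from villi of Atoh1-/- mice, whose epithelium has no secretory cells per the labels. Lineage and genotype therefore cannot be told apart. The labels name no sort of the villus cells, no time of deletion and no number of animals, and the share of other cells in each preparation is unknown.

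Enterocytes absorb nutrients and goblet cells secrete mucus, and both arise from progenitors in the crypt. Notch signalling, which acts on DNA through the protein encoded by Rbpj, holds back the secretory fate, and ATOH1 is the transcription factor without which secretory cells do not form. H3K4me2 marks promoters and enhancers, H3K27ac marks those that are active, and sites hypersensitive to DNase I (DHS) mark open chromatin. The other lists served as readouts: H3K4me2 of Lgr5+ stem cells (ISC), of secretory progenitors (Sec-Pro) from Rbpj-/- mice or from mice given the Notch inhibitor dibenzazepine (DBZ), and of enterocyte progenitors (Ent-Pro, 2 libraries, from Atoh1-/- crypts). H3K27ac and DHS were mapped in Sec-Pro and Ent-Pro with 1 library each, and ATOH1 in Sec-Pro with an antibody to the FLAG tag. Whether these last Sec-Pro libraries came from DBZ or Rbpj-/- mice is not stated in the labels.

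With 1 library on each side there is no replicate check, so every difference below describes these lists and was not tested. The read depth of both lists is unknown, so the mark may be present in cells whose list has no peak at a site. Brackets give Wilson 95% intervals, which cover counting error only. Scores are the authors' own, carry no name in the files and were used for ranks within a list. Positions are on build mm9, counted from 1. No annotation or sequence of that build was used here, so no region is assigned to a gene, exon or promoter, and the labelled cell types could not be checked against the chromatin of their marker genes.

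The lists were close in shape. Peaks ran from 146 bp to 17809 bp in GOB (median 371 bp, 64.4 Mb in all) and from 146 bp to 17706 bp in ENT (median 438 bp, 69.5 Mb in all). Merging peaks that overlapped by at least 1 bp gave 102871 regions. Both cell types marked 55517 of them (54.0%), GOB alone marked 21531 (20.9%) and ENT alone marked 25823 (25.1%). As shares of the lists, 24.8% of GOB peaks had no overlapping ENT peak and 29.2% of ENT peaks had no overlapping GOB peak. These are called GOB-only and ENT-only, or together one-sided.

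One-sided peaks were short and ranked low. GOB-only peaks had a median width of 210 bp and a median score percentile of 23.2 within their list, and ENT-only peaks 226 bp and 25.4. Shared regions held a median of 640 bp of GOB peak and 739 bp of ENT peak, at percentiles of 65.5 and 65.1. One-sided peaks thus were numerous but held little of the marked length, at 5.76 Mb in GOB against 58.7 Mb shared, and 7.15 Mb in ENT against 62.3 Mb shared.

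The share of one-sided peaks was lower at higher scores in both lists. In the lowest decile of score it was 57.2% [56.2 to 58.3] in GOB and 60.2% [59.1 to 61.2] in ENT. In the sixth decile it was 16.7% [15.9 to 17.5] and 24.1% [23.3 to 25.0]. Of the highest decile, 1 of 8692 peaks was one-sided in GOB, and 0 of 8810 in ENT. ENT had the larger share in each of the lower 7 deciles. In the upper 3 GOB had the larger share, but the intervals overlapped. In decile 8 they were 2.82% [2.50 to 3.19] in GOB and 2.59% [2.28 to 2.94] in ENT.

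Width gave a similar picture, with a crossing between the lists. Of peaks under 200 bp, 52.7% [52.0 to 53.4] of GOB and 65.0% [64.3 to 65.8] of ENT were one-sided. Of peaks of 2000 bp or more, 29 of 7150 GOB peaks were one-sided (0.406% [0.283 to 0.582]) and 3 of 7124 ENT peaks (0.0421% [0.0143 to 0.124]). Broad H3K4me2 peaks found in 1 list alone were therefore rare and more often in GOB. How many of them stay one-sided with peaks of a list within 1 kb joined was not counted.

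**Figure D1:**
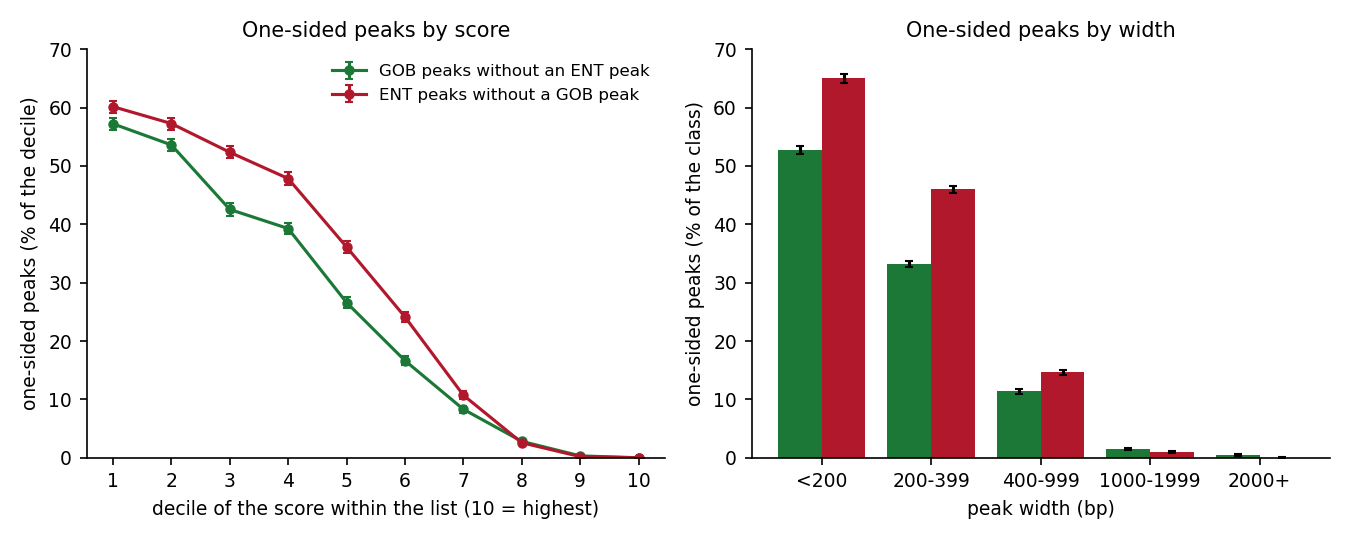
Share of peaks without an overlapping peak in the other list, for GOB (green) and ENT (red). Left, by decile of score within the list (10 is the highest); right, by peak width in bp. Bars on points and columns are Wilson 95% intervals, counting error only. Shares fall from 57.2% in GOB and 60.2% in ENT to near 0 in the highest decile.

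One-sided peaks mostly lay near marked chromatin of the other cell type. Of the GOB-only peaks, 44.1% lay within 1 kb of an ENT peak, 37.7% lay 1 to 10 kb away and 1.68% (362 peaks) lay over 100 kb away. Of the ENT-only peaks, 49.7% lay within 1 kb of a GOB peak, 32.0% lay 1 to 10 kb away and 2.23% (577 peaks) lay over 100 kb away. The few remote peaks differed between the cell types in what else they carried. A Sec-Pro DHS lay in 35.1% of the remote GOB-only peaks and an Ent-Pro DHS in 37.8%, against 1.21% and 2.08% of the remote ENT-only peaks. H3K27ac went the other way, in 1.93% (Sec-Pro) and 3.59% (Ent-Pro) of the remote GOB-only peaks against 35.01% and 42.1% of the remote ENT-only peaks. Over all GOB-only peaks the Sec-Pro and Ent-Pro shares were 6.20% and 7.15% for DHS and 18.7% and 19.7% for H3K27ac. Over all ENT-only peaks they were 1.02% and 2.02% for DHS and 44.2% and 44.1% for H3K27ac. In DHS and H3K27ac the remote peaks thus departed from their class mainly in GOB. In H3K4me2 of ISC and DBZ Sec-Pro they departed more in ENT. ISC H3K4me2 lay in 28.4% of remote and 16.6% of all ENT-only peaks, against 8.56% and 7.84% in GOB-only. For DBZ Sec-Pro H3K4me2 these shares were 62.2% and 45.0%, against 28.5% and 30.6%.

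Chromosomes differed in the balance of the 2 kinds. Of all one-sided peaks on a chromosome, the share that was GOB-only ran from 37.4% on chromosome 18 to 52.0% on chromosome 17 among autosomes. On the X chromosome it was 27.6%, with 155 GOB-only and 406 ENT-only peaks. The Y chromosome held 26 GOB and 28 ENT peaks.

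The 6 highest-ranking GOB-only peaks measured 1166 to 5969 bp with 1 exception. The first covered 5969 bp of chromosome 17 from 27860300 to 27866268, at percentile 91.5, and was the 1 GOB-only peak in the highest decile. It held 3 ATOH1 peaks, and no other one-sided peak of either list ranked as high. With GOB peaks within 1 kb joined, it became part of a shared region. The next in width lay at chr17:31262151-31265354 (3204 bp, percentile 86.4) with 1 ATOH1 peak and 2 Sec-Pro H3K27ac peaks and no Ent-Pro H3K27ac peak. With this peak counted in, 12 GOB-only and 0 ENT-only peaks lay within 50 kb.

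Of the others, chr7:28859926-28861091 (1166 bp) and chr19:10509541-10511879 (2339 bp) held ATOH1 peaks, and chr2:170248996-170251931 (2936 bp) held none. All 3 carried H3K4me2 in Sec-Pro after DBZ. The exception in width was chr13:101358568-101358999 (432 bp, percentile 88.1), with H3K4me2 and H3K27ac in both progenitors. It had 5 GOB-only peaks, itself counted in, and 5 ENT-only peaks within 50 kb. The other 5 lay in clusters of 6 to 19 GOB-only peaks.

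The 6 highest-ranking ENT-only peaks were narrower and lay in a cluster less often. They measured 375 to 1314 bp at percentiles 83.4 to 84.98. The first, chr19:39082781-39083872, lay in a cluster of 18 ENT-only peaks. Within 50 kb there were 12 ENT-only peaks, itself counted in, and 0 GOB-only peaks. The other 5 lay in no cluster. Of these, chr18:33371790-33372164, chr9:32033114-32033769 and chr11:102890512-102891000 carried H3K4me2 in all 5 crypt lists and H3K27ac in both progenitors. None of the 6 held an ATOH1 peak or a DHS. Over all ENT-only peaks the shares were low too, at 0.612% for ATOH1, 1.02% for Sec-Pro DHS and 2.02% for Ent-Pro DHS. With peaks within 1 kb joined, 4 of these 6 and 3 of the 6 in GOB became parts of shared regions. In ENT these 4 were the ones with H3K4me2 in all 5 crypt lists.

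A contrast in crypt marking was found over the strongest one-sided peaks as a whole, those above percentile 75 of their list. Of 101 such GOB-only peaks, 8 were marked by H3K4me2 in all 5 crypt lists (7.92% [4.07 to 14.9]) and 18 in none. Of 94 such ENT-only peaks, 61 were marked in all 5 (64.9% [54.8 to 73.8]) and 1 in none. The 61 sites were thus marked in stem cells and both progenitors and had no overlapping peak in the GOB list. How many of them become parts of shared regions with peaks within 1 kb joined was not counted. None of the 61 held a DHS of either progenitor, and 46 held H3K27ac of both. DHS were rare in all ENT-only peaks, at 1.02% for Sec-Pro and 2.02% for Ent-Pro. H3K27ac of both lay in 35.6% of all ENT-only peaks and 64.2% of shared regions. H3K4me2 in all 5 crypt lists was found at 2.47% of all GOB-only peaks, 11.5% of all ENT-only peaks and 54.6% of shared regions. The median width of the 61 was 537 bp, against 1113 bp for all ENT peaks between percentiles 75 and 85. The ENT share depended on the limit chosen, at 26.9% above percentile 50 and 73.7% (14 of 19) above percentile 80, while the GOB share stayed between 5.54% and 7.94%.

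Shared regions were next compared by rank and width. Ranks followed each other closely, with a Spearman correlation of 0.848 across the 55517 shared regions, given as a description of 2 libraries whose peaks share antibody and strain. The difference between the GOB and ENT percentiles had a median of 0.455 points, and 84.5% of shared regions stood within 25 points. A difference of at least 50 points was found at 520 regions higher in GOB (0.937% of shared regions) and 505 higher in ENT (0.91%). In the regions higher in GOB the median percentile was 66.1 in GOB and 7.81 in ENT. In those higher in ENT it was 6.34 in GOB and 64.5 in ENT. Most of these were regions of middle rank in 1 list and of low rank in the other.

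Widths leaned toward ENT. ENT had the wider mark at 60.4% of shared regions and GOB at 39.4%, and the median ratio of GOB to ENT width was 0.945. A 4-fold or larger difference was found at 237 regions wider in GOB (0.427% of shared regions) and 668 wider in ENT (1.2%). The median widths were 1016 bp in GOB and 185 bp in ENT in the first set, and 177 bp and 912.5 bp in the second. Rank and width moved together. Of the 520 regions ranked higher in GOB, 93.1% were wider in GOB, and of the 505 ranked higher in ENT, 97.6% were wider in ENT. Both limits were passed at 94 regions for GOB and 100 for ENT, and at 0 regions in opposite directions.

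**Figure D2:**
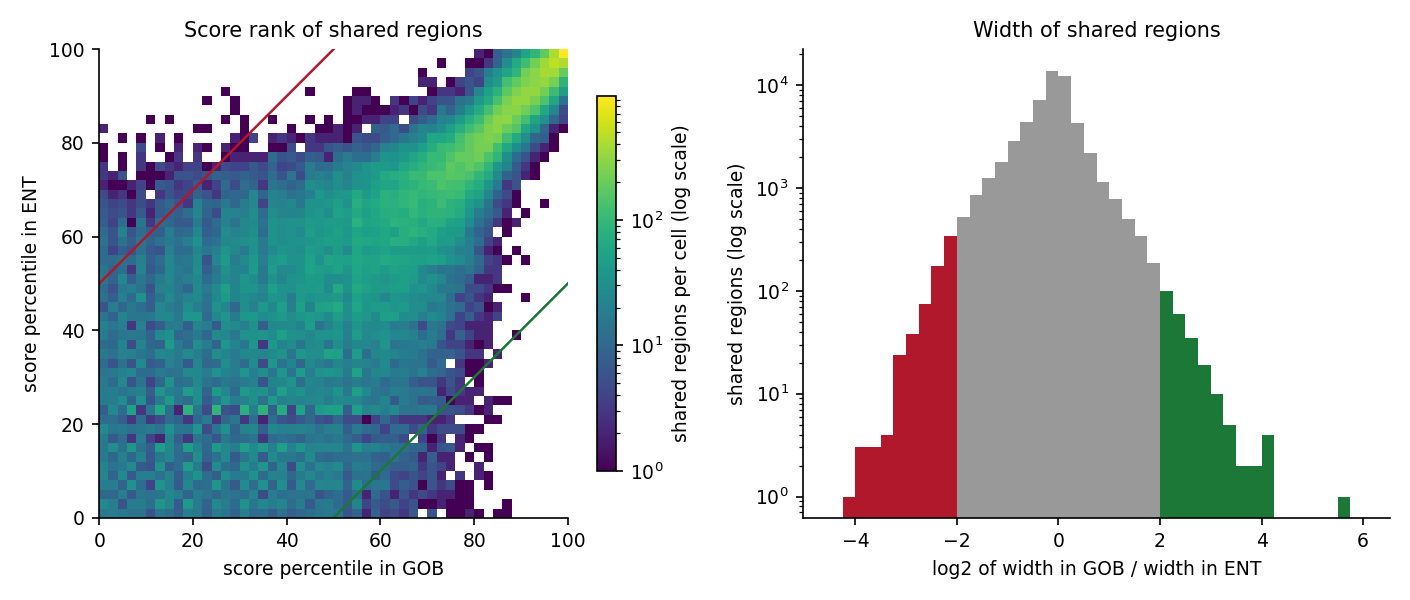
Shared regions of GOB and ENT. Left, number of regions by score percentile in GOB (x axis) and ENT (y axis), colour on a log scale; the lines mark differences of 50 points, past which lie 520 regions higher in GOB (below the green line) and 505 higher in ENT (above the red line). Right, number of regions (log scale) by log2 of the width in GOB over that in ENT, with 237 regions at least 4-fold wider in GOB in green and 668 at least 4-fold wider in ENT in red.

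The region with the largest gap in both rank and width lay at chr7:148876130-148883988. Its GOB peak covered 7859 bp at percentile 87.6 and its ENT peak 164 bp at percentile 1.34, a 47.9-fold difference in width. Sec-Pro after DBZ had 6 H3K4me2 peaks in it, and Rbpj-/- Sec-Pro, Ent-Pro and ISC had none. The second by rank, chr7:148856831-148860507, lay 15622 bp before it, with 3677 bp at percentile 88.0 in GOB and 275 bp at percentile 2.22 in ENT. Between them lay 4 GOB-only and 0 ENT-only peaks, and together the 2 regions held 3 ATOH1 peaks and 2 Sec-Pro H3K27ac peaks. No Ent-Pro H3K27ac peak lay in either. In both regions GOB had a broad peak of high rank and ENT a short one near the bottom of its list.

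The other regions ranked furthest toward GOB were chr9:69925801-69928271, chr16:33519898-33522417 and chr2:13714369-13715755, with widths of 1387 to 2520 bp in GOB and 154 to 258 bp in ENT. Of these only the one on chromosome 2 held a DHS, and none held an ATOH1 peak. Among the 5 with the largest width ratio toward GOB, chr3:144761049-144763708 (2660 bp against 146 bp) had no peak in any of the other 10 lists, with 15 GOB-only peaks within 50 kb. When nearby peaks were joined, its log2 width ratio of 4.19 became 1.26, and that of the region on chromosome 16 from 33519898 went from 4.03 to 1.04, both short of 4-fold. The 2 others were chr13:47095444-47098633 (3190 bp against 185 bp) and chr16:13728576-13731787 (3212 bp against 188 bp). The latter carried ATOH1 and DHS and H3K27ac of both progenitors.

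The 5 regions ranked furthest toward ENT were chr11:12309875-12310706, chr8:47828012-47828815, chr15:101903296-101904078, chr2:113689203-113689647 and chr2:15448155-15448646. None held an ATOH1 peak, and 1.78% of all regions ranked higher in ENT did. Each of the 5 carried H3K4me2 in all 5 crypt lists and H3K27ac in both progenitors. That combination of H3K4me2 and H3K27ac was found at 28.7% [24.9 to 32.8] of all regions ranked higher in ENT and at 43.9% of all shared regions, so it does not set the class apart. At the first, the percentile was 1.67 in GOB and 83.7 in ENT, and the widths were 185 bp and 832 bp. These regions were short also in ENT, at 445 to 832 bp, and only the one on chromosome 15 held a DHS.

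The 5 with the largest width ratio toward ENT were other regions. The first, chr17:34422060-34424779, measured 2720 bp in ENT (percentile 84.7) and 148 bp in GOB (percentile 10.3), an 18.4-fold difference. It had 12 ENT-only and 1 GOB-only peaks within 50 kb. The rest were chr7:130362083-130364444, chr5:53634172-53636211, chr8:95796680-95798687 and chr14:70214802-70216847. Their ratios ran from 12.9 to 14.3 with ENT widths of 2008 to 2362 bp. With peaks within 1 kb joined, those on chromosomes 7, 5 and 8 no longer reached 4-fold, at log2 ratios (GOB over ENT) of -1.11, -1.18 and -1.43. None of the 5 held an ATOH1 peak, and 1.80% of all regions wider in ENT did.

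ATOH1 binding in secretory progenitors was unevenly spread over these classes. Among GOB-only peaks, 5.32% [5.03 to 5.63] held an ATOH1 peak, and among ENT-only peaks 0.612% [0.524 to 0.715] did. It lay in 14.8% [12.01 to 18.1] of shared regions ranked higher in GOB and 1.78% [0.940 to 3.35] of those ranked higher in ENT. It lay in 22.4% [17.5 to 28.1] of those wider in GOB and 1.80% [1.03 to 3.11] of those wider in ENT. Over all shared regions the share was 12.7% [12.4 to 12.97]. Longer regions hold more sites by their length. Per Mb there were 206 ATOH1 peaks in GOB-only and 22.5 in ENT-only peaks, 217 and 25.2 in the rank classes, 226 and 17.5 in the width classes, and 126 over all shared regions. In equal windows of 1 kb on the regions' centres, there were 91.2 ATOH1 peaks per Mb in GOB-only and 16.5 in ENT-only peaks, against 114 in shared regions. The GOB classes thus stood above their ENT counterparts by either measure, while GOB-only peaks stood above shared regions by whole-region length and below them in equal windows. An overlap of 1 bp was enough to count, which raises the number per Mb more in short regions than in long ones. Whole-region length therefore cannot order GOB-only peaks against the longer shared regions.

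Most ATOH1 peaks over one-sided peaks of either kind overlapped no DHS of either progenitor. Of 1139 ATOH1 peaks over GOB-only peaks, 80.1% [77.7 to 82.3] had no DHS, and of 157 over ENT-only peaks 84.7% [78.3 to 89.5]. The share was 39.7% [38.7 to 40.8] of the 8540 over shared regions and 60.8% of all 15240. Between the GOB and ENT classes, DHS had the same direction as ATOH1. A Sec-Pro DHS lay in 15.2% [12.4 to 18.5] of regions ranked higher in GOB and 2.38% [1.36 to 4.11] of those ranked higher in ENT. For the Ent-Pro DHS the shares were 17.9% [14.8 to 21.4] and 6.14% [4.36 to 8.58]. Over all shared regions the shares were 31.8% and 36.5%, so both classes were poor in DHS of both progenitors, the ENT side more so.

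H3K27ac of the progenitors was less frequent in the GOB classes. Sec-Pro H3K27ac lay in 40.6% [36.4 to 44.9] of regions ranked higher in GOB and 70.5% [66.4 to 74.3] of those ranked higher in ENT. Ent-Pro H3K27ac lay in 45.4% [41.2 to 49.7] and 75.6% [71.7 to 79.2]. The width classes gave 43.0% and 77.7% for Sec-Pro, and 39.7% and 75.4% for Ent-Pro. Over all shared regions the shares were 68.4% for Sec-Pro and 70.8% for Ent-Pro. The ENT classes thus lay close to or above that level, and the GOB classes lay further below it.

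These readouts were also followed across the whole range of rank differences, within 1 kb windows on the regions' centres. ATOH1 lay in 1.78% of windows at differences of -50 points or less (GOB minus ENT), 12.7% within 10 points and 15.6% at 50 points or more. DHS peaked where the ranks were alike, with Sec-Pro DHS at 2.97%, 41.3% and 15.8% in the same 3 bins. Sec-Pro H3K27ac was at 73.5%, 77.3% and 44.0%. ATOH1 was thus low at the ENT end and H3K27ac at the GOB end, and DHS was more frequent in the middle than at either end. Regions in the middle bin also ranked higher, at a median percentile of 79.2 in GOB, and were longer, at a median of 1211 bp against 612 and 627 bp at the ends. The part of rank and length in the DHS shares was not tested.

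**Figure D3:**
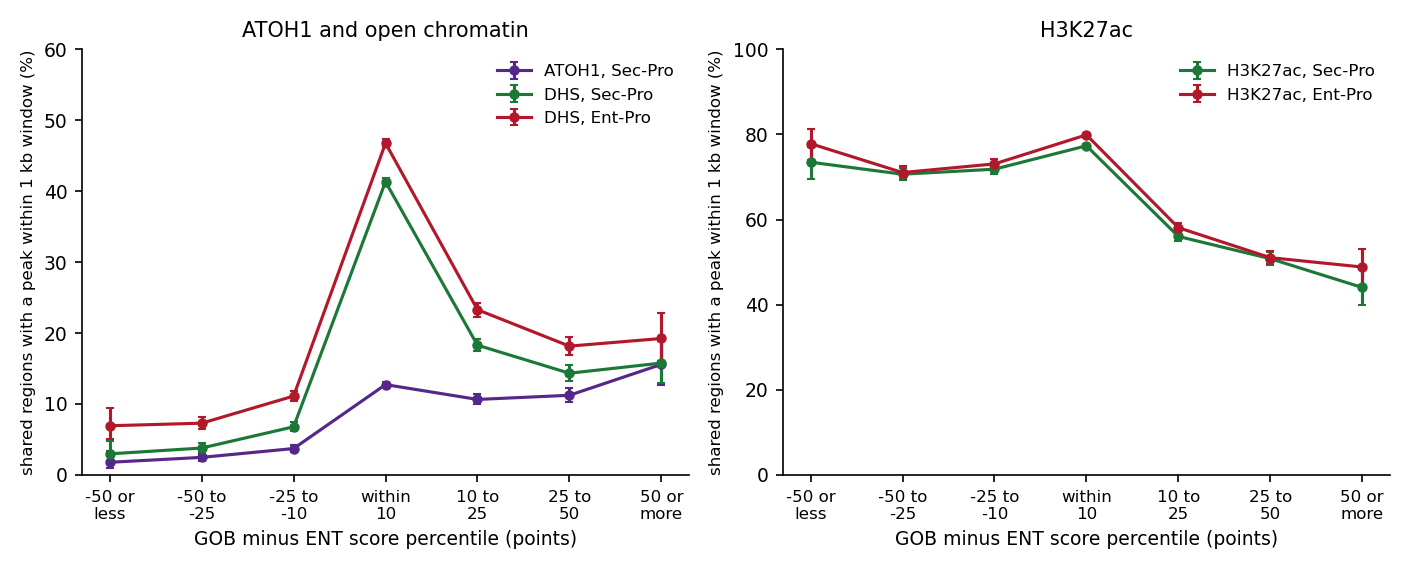
Share of shared regions with a peak of the named list in the 1 kb window on the region's centre, by the difference between GOB and ENT score percentile. Left, ATOH1 and DHS (y axis to 60%); right, H3K27ac (y axis to 100%). Bars are Wilson 95% intervals. ATOH1 reads 1.78% at the ENT end and 15.6% at the GOB end, and Sec-Pro H3K27ac 73.5% and 44.0%.

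Splitting the one-sided peaks by score, at percentiles 25, 50 and 75 of their list, gave the same directions. In GOB-only peaks, windows with ATOH1 made up 7.38%, 8.62%, 13.5% and 20.8% from the lowest to the highest scores. In ENT-only peaks they made up 1.88%, 1.47%, 0.813% and 1.06%. Windows with Sec-Pro H3K27ac made up 27.02% to 33.7% in GOB-only peaks, and 49.9%, 60.1%, 73.6% and 85.1% in ENT-only peaks. Above percentile 75 there were 101 GOB-only and 94 ENT-only peaks.

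Marking in the crypt differed in the same sense. Of the GOB-only peaks, 62.3% had H3K4me2 in none of the 5 crypt lists and 47.8% had no peak in any of the other 10 lists. For ENT-only peaks these shares were 43.7% and 28.3%, and for shared regions 11.8% and 6.74%. Among shared regions ranked higher in GOB, 19.6% were marked in all 5 crypt lists, against 38.4% of those ranked higher in ENT and 54.6% of all shared regions. The Rbpj-/- Sec-Pro list shares its deleted gene with GOB, as the Ent-Pro lists share theirs with ENT. It marked 42.5% [38.3 to 46.8] of regions ranked higher in GOB and 78.2% [74.4 to 81.6] of those ranked higher in ENT. The DBZ Sec-Pro list marked 71.3% [67.3 to 75.1] and 77.8% [74.0 to 81.2]. Ent-Pro replicate 2 gave 42.3% and 77.4%, like the Rbpj-/- list, and Ent-Pro replicate 1 gave 69.8% and 84.6%. The gap was thus larger in both lists whose shortest peak is 200 bp than in both whose shortest peak is 146 bp. The Rbpj-/- list is among the former, and the part of genotype was not tested.

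The order of the progenitors at these regions depended on the lists used. Between the DBZ Sec-Pro and Ent-Pro replicate 1 lists, whose shortest peak is 146 bp as in GOB and ENT, 320 regions ranked higher in GOB had peaks in both. Sec-Pro had the higher percentile at 199 of them (62.2%), against 52.3% over all shared regions and 47.6% of those ranked higher in ENT. Between the Rbpj-/- Sec-Pro and Ent-Pro replicate 2 lists, whose shortest peak is 200 bp, it was 75 of 158 (47.5%), against 47.7% over all shared regions. The pairs of lists gave no common direction.

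One-sided peaks followed each other along the genome. The region after a GOB-only peak was again GOB-only in 38.7% of cases, while GOB-only regions made up 20.9% of all regions, and it was ENT-only in 12.9%. The region after an ENT-only peak was again ENT-only in 39.3%, against 25.1% of all regions, and GOB-only in 10.6%. Median gaps between such neighbours were 0.862 kb in GOB and 0.682 kb in ENT. When peaks of a list within 1 kb were joined first, the shares were 22.5% in GOB (against 16.7% of all regions) and 24.2% in ENT (against 16.8%), so much of the excess lay at gaps under 1 kb.

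Shared regions of unequal rank or width had one-sided neighbours of the matching kind. Of the regions beside those ranked higher in GOB, 40.4% were GOB-only and 9.42% ENT-only. Beside those ranked higher in ENT, 8.51% were GOB-only and 41.3% ENT-only. The width classes gave 53.0% GOB-only and 6.75% ENT-only beside regions wider in GOB, and 7.86% and 42.1% beside those wider in ENT. Beside all shared regions the shares were 18.8% and 23.3%. Presence, rank and width thus leaned the same way along the genome in the lists without joining of nearby peaks. A shared region and its one-sided neighbour can be pieces of the same marked stretch. These measures are then not independent of each other. The shares beside shared regions were not computed with nearby peaks joined.

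A cluster was defined as 5 or more one-sided peaks of 1 kind in a row, with no peak of the other list between and gaps of at most 100 kb. There were 403 GOB-only clusters with 2613 peaks (12.1% of GOB-only peaks) and 499 ENT-only clusters with 3117 peaks (12.1% of ENT-only peaks). Peaks that stood alone made up 41.4% and 40.8%. The clusters spanned a median of 16.99 kb in GOB and 16.1 kb in ENT. Of these, 36 and 33 held 10 or more peaks, with up to 21 in GOB and 23 in ENT. The shares in clusters were thus close in the 2 cell types. The numbers rested on how finely the lists split the marked stretches, since 40 GOB-only and 43 ENT-only clusters were left with peaks within 1 kb joined, and 75 and 81 with the upper 50% of each list by score.

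**Figure D4:**
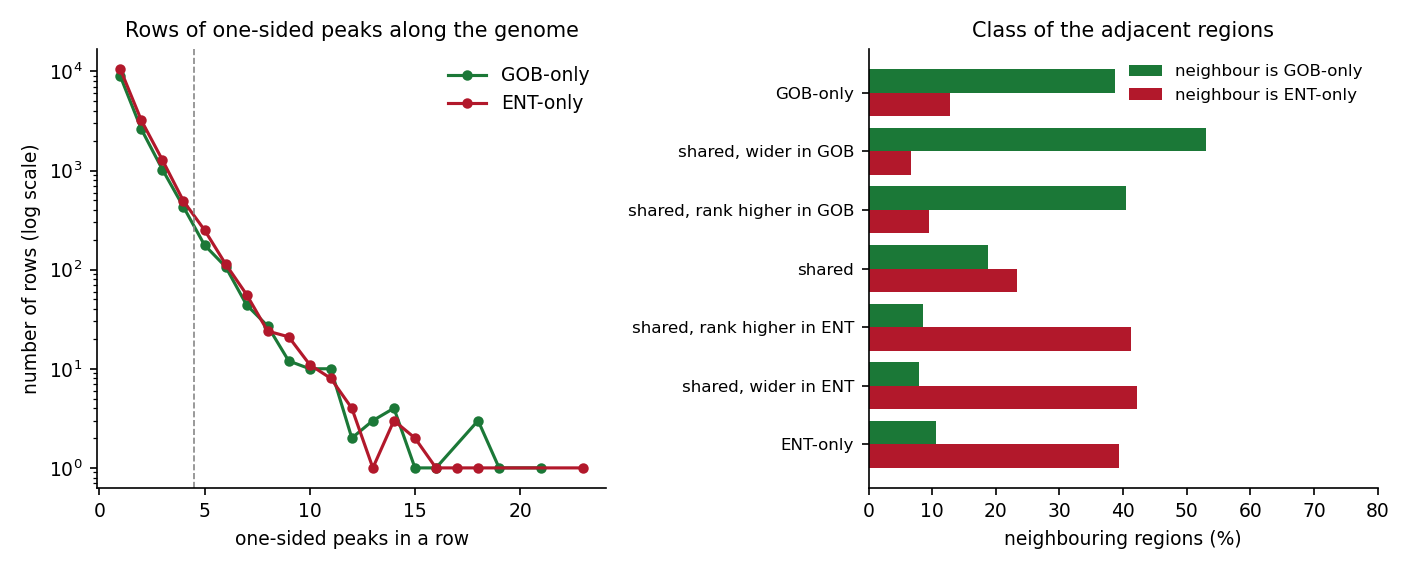
Left, number of rows of one-sided peaks (log scale) by the number of peaks in the row, with rows right of the dashed line counted as clusters (403 GOB-only, 499 ENT-only). Right, share of the regions directly before and after each class of region that are GOB-only (green) or ENT-only (red); regions wider in GOB have 53.0% GOB-only neighbours and regions wider in ENT have 42.1% ENT-only neighbours.

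Clusters differed between the cell types in ATOH1. An ATOH1 peak lay in 3.68% [3.31 to 4.09] of GOB-only peaks that stood alone, 5.89% [5.45 to 6.37] of those in rows of 2 to 4, 8.76% [7.74 to 9.91] of those in clusters and 11.7% [9.04 to 14.95] of those in clusters of 10 or more. In ENT-only peaks the shares were 0.779%, 0.525%, 0.385% and 0 of 405. Median width also went up along these groups, from 199 bp alone to 273 bp in the largest GOB-only clusters and from 218 bp to 248 bp in ENT. Its part in the ATOH1 shares was not tested. Sec-Pro H3K27ac ran from 20.5% alone to 13.7% in the largest GOB-only clusters, and from 40.8% to 49.9% in ENT.

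The GOB-only cluster with most peaks lay on chromosome 15 from 58341478 to 58377282, with 21 peaks over 35.8 kb. It held no ATOH1, no H3K27ac and 1 DHS of each progenitor, and only 2 of its peaks were marked in a crypt list, that of DBZ Sec-Pro. The second, on chromosome 17 from 27858658 to 27898949, had 19 peaks that covered 14.8 kb of 40.3 kb, the domain of 5969 bp among them. It held 8 ATOH1 peaks, and 5 of its H3K4me2 peaks carried Sec-Pro H3K27ac and 0 carried Ent-Pro H3K27ac. The third, on chromosome 10 from 121309726 to 121457656, had 18 peaks over 148 kb, 3 of them with ATOH1. Of its peaks, 2 carried Ent-Pro H3K27ac and 0 Sec-Pro H3K27ac, and each of the 5 crypt lists marked 2 to 5 of them. The largest GOB-only clusters thus differed in crypt marks, from next to none on chromosome 15 to ATOH1 and Sec-Pro marks on chromosome 17.

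The ENT-only cluster with most peaks lay on chromosome 5 from 146708832 to 146881385, with 23 peaks over 173 kb. H3K27ac of Sec-Pro lay in 17 of them and that of Ent-Pro in 9. The second, on chromosome 19 from 39006999 to 39139681, had 18 peaks over 133 kb, 10 of them with Sec-Pro H3K27ac and 8 with Ent-Pro H3K27ac. The third, on chromosome 9 from 9128283 to 9222416, had 17 peaks over 94.1 kb. No peak of these 3 clusters held ATOH1 or a DHS, while each cluster had H3K4me2 peaks of all 5 crypt lists.

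**Figure D5:**
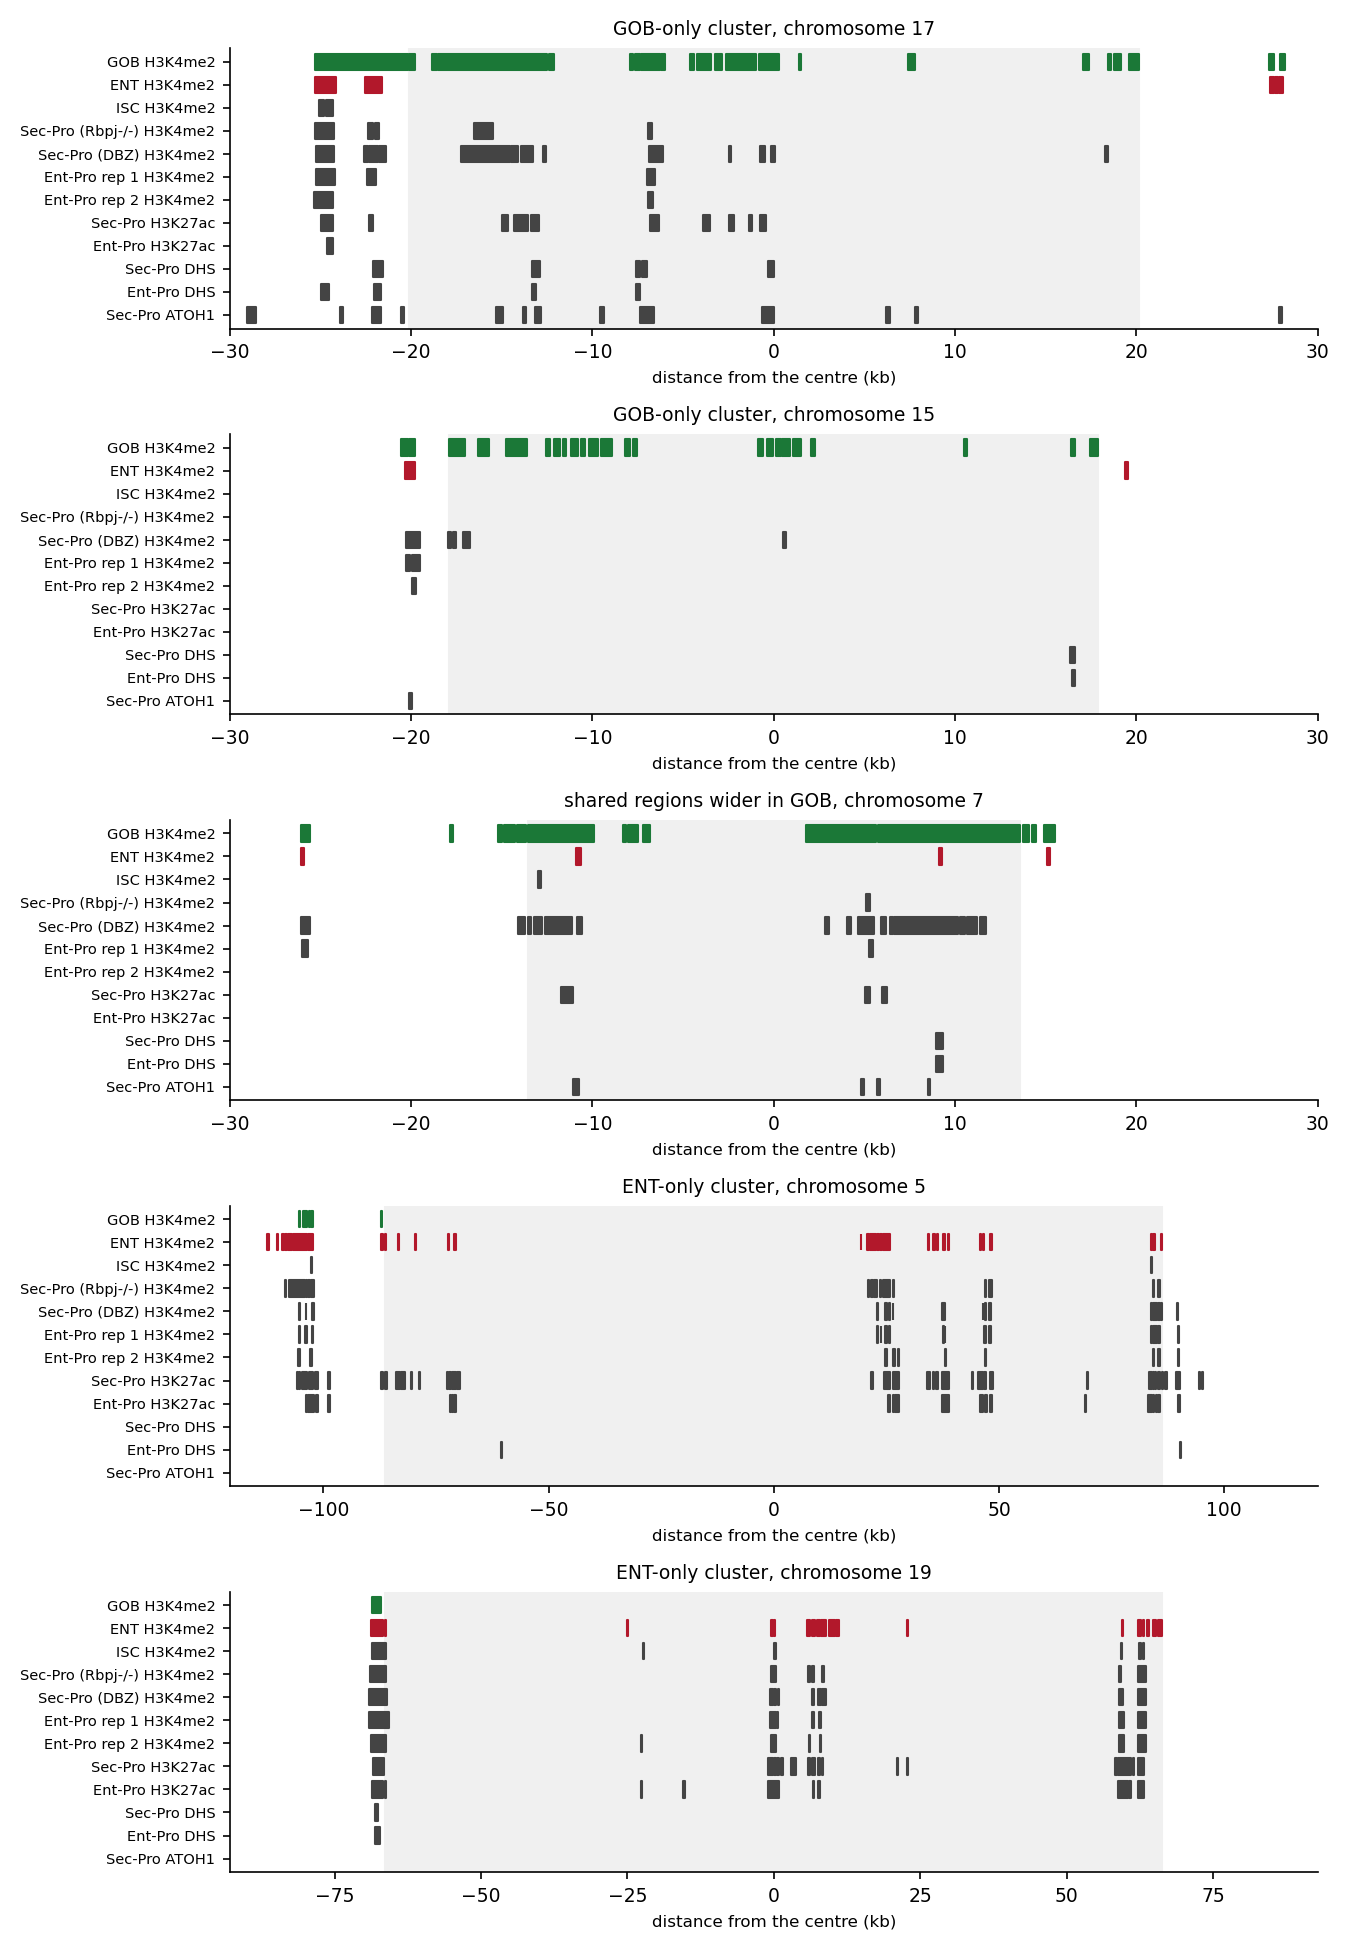
Peaks of all 12 lists in 5 stretches, by distance from the centre in kb (x axis; the lower 2 panels have a wider range). Each block is 1 peak drawn to scale, GOB in green, ENT in red and the other lists in grey; shading marks the cluster or, on chromosome 7, the stretch from the start of the first to the end of the second shared region. The chromosome 17 cluster holds 8 ATOH1 peaks, and the chromosome 5 and 19 clusters hold none.

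Over windows of 1 Mb the 2 kinds mostly went together. Across 2212 windows the numbers of GOB-only and ENT-only peaks had a Spearman correlation of 0.682. Both also followed the number of shared regions (0.866 for GOB-only, 0.847 for ENT-only), so these correlations describe how densely a window is marked. Of 1386 windows with at least 10 one-sided peaks, 94 (6.78%) had at least 3 times as many GOB-only as ENT-only peaks and 320 (23.1%) the reverse. The windows with most GOB-only peaks lay on chromosome 10 from 80000001 (86 GOB-only, 27 ENT-only) and chromosome 17 from 27000001 (81 and 17). Those with most ENT-only peaks lay on chromosome 19 from 32000001 (23 GOB-only, 95 ENT-only) and chromosome 11 from 86000001 (18 and 76).

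Pairs of crypt lists give a scale for these numbers, and differences between pairs were not tested. Between DBZ Sec-Pro and Ent-Pro replicate 1, of the same shortest peak as the mature lists, 0.406% of shared regions differed by 50 points or more, against 1.85% between GOB and ENT. A 4-fold difference in width was found at 0.588% against 1.63%, and clusters numbered 101 and 41 against 403 and 499. Between the Rbpj-/- Sec-Pro and Ent-Pro replicate 2 lists, 0.154% and 0.229% of shared regions passed the limits, with 15 and 14 clusters. Lists of 1 progenitor with different shortest peaks also differed, mostly in 1 direction. DBZ against Rbpj-/- Sec-Pro gave 1.94% by rank and 780 against 9 clusters, and Ent-Pro replicate 1 against 2 gave 1.01% and 402 against 0 clusters. Regions 4-fold wider numbered 412 against 73 and 249 against 34 in these pairs. GOB and ENT, with the same shortest peak, differed in both directions.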

How the data were processed

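H3K4me2 of 1 GOB and 1 ENT library was compared, with 10 further peak lists as readouts. The 3 input samples are not analysed here. The authors used CASAVA 1.7, Bowtie 0.12.7, MACS2 and build mm9, per the submitters' processing notes, which state no parameters. The authors deposited 1 list per library, with position, name and a score per peak. What the score measures was not given in the sources used. Peak widths in bp were computed from the deposited start and end positions.

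Peaks that overlapped by at least 1 bp were merged into regions. A region's percentile is that of its highest score within the list, and its width the summed length of its peaks there. Limits were 50 points, 4-fold, and 5 peaks in a row with gaps up to 100 kb. A region had a readout when a peak of that list overlapped it by at least 1 bp, or overlapped the 1 kb window on its centre. No test was made with 1 library a side. The counting was tested on simulated lists. Named were the 6 one-sided peaks of highest percentile in each list, the 5 shared regions with the largest rank difference (1 peak in each list) and the 5 with the largest width ratio on each side, the 3 clusters with most peaks and the 2 windows of 1 Mb with most one-sided peaks. Members and lists were chosen with earlier results of these data known. Alternatives changed the overlap, the score threshold, the list length, the joining of peaks, the chromosomes, the limits and the readout window. Software was Python 3.11.15, NumPy 2.4.6, pandas 2.3.3, SciPy 1.17.1 and matplotlib 3.10.9.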

Additional observations from a re-analysis of the deposited data

How the results depend on the processing

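No paired analysis was possible because there was 1 library on each side, for which reason no replicate could be left out either. With the upper 50% of each list by score, 8059 GOB-only and 8900 ENT-only peaks were left, 34 regions were 4-fold wider in GOB and 258 in ENT, and 75 and 81 clusters were found. A one-sided peak was then followed by its own kind in 28.0% of cases in GOB (16.5% of all regions) and 30.0% in ENT (18.2%). With peaks within 1 kb joined, there were 9213 GOB-only and 9254 ENT-only peaks, 712 and 1662 regions 4-fold wider, 40 and 43 clusters, and 22.5% and 24.2% followed by their own kind. Lists of equal length moved the ENT share to 38.6%. A limit of 25 points gave 4315 regions higher in GOB and 4303 in ENT, 75 points gave 10 and 6, and ranks among regions with 1 peak in each list gave 265 and 280. Width limits of 2-fold gave 2047 and 5126 regions, and 8-fold gave 24 and 35. With the widest peak in place of the summed width, 1058 regions were 4-fold wider in ENT. ATOH1 lay in 8.52% of GOB-only and 1.59% of ENT-only peaks within 1 kb windows, and in 3.59% and 0.360% with the upper 50% of ATOH1 peaks.

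The other alternatives kept the main counts within 1.5 times. Of 56 values for the other readout shares, 23 stayed inside the Wilson interval of the main value and 33 did not. The upper 50% of Sec-Pro H3K27ac peaks lay in 20.0% of regions ranked higher in GOB and 50.7% of those ranked higher in ENT. Of 124 values for the named regions and clusters, 100 stayed one-sided, past their limit or within 1.5 times, and 24 did not. A change of sign was possible for rank and width values only, and 0 changed sign. For the named one-sided peaks only joining could change the class, since the other alternatives removed peaks of low score or of the sex chromosomes. Joining made 4 of the 6 in ENT and 3 of the 6 in GOB parts of shared regions. The 6 named clusters held 4 to 10 peaks in the upper 50% of the lists and 5 to 12 with peaks joined. Joining left 3 regions named as wider in ENT at log2 ratios of -1.11 to -1.43, short of 4-fold. In lists of equal length the lowest tied scores dropped out of ENT, and 4 of the 5 regions named for a higher rank in GOB gave no value. The limits above percentiles 50 to 80 for the strongest one-sided peaks were chosen after seeing the data. Unknown depth bounds every statement on missing peaks.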
